A study of Homo sapiens with 16 samples.

Results

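The 50 genes described here encode endoplasmic reticulum (ER) chaperones, folding enzymes, ER-associated degradation factors, translocation channel proteins and the stress sensors of the unfolded protein response. They were taken by name from a list, which was chosen with earlier results of these data known. The paper had already named HSPA5 and HSP90B1 among genes upregulated at P7. In its supplement, a group under protein processing in the ER also holds PDIA4, PDIA6, P4HB, ERO1B, DERL3, EDEM1, SEL1L and HERPUD1. From the other lists used below, that group holds DNAJC3, UGGT2, SEC61G, SEC61A2, LMAN1, CANX, PPP1R15A and DDIT3. Shares of members beside those of all genes therefore describe the list and are not an independent test. Of the 39007 genes in the expression table, 49 members were found under the listed symbol and 1, SELK, under its newer symbol SELENOK. All 50 had a mean above 1 CPM (counts relative to all counts of the library) and were tested.

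RNA was sequenced from T24 cells, an established human bladder carcinoma line, and from the GRC1 cell line, which was derived from T24 by repeated rounds of exposure to the nucleoside analogue gemcitabine followed by regrowth. Parental phase P0 is T24 without selection, and P3, P7 and P15 are the early, the intermediate and the late phase of GRC1. Each of the 4 phases had 4 libraries. All cells were grown in the same medium, DMEM with serum and antibiotics. Every library title carries the letters NT, whose meaning is not given in the sources used here. The paper's methods do not say whether gemcitabine was present when RNA was taken. GRC1 is 1 line, so the phases are successive states of 1 selection, and the labels do not say whether the libraries of a phase came from separate cultures. The p-values therefore measure the spread between these libraries, which may be technical.

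The ER folds proteins that enter the secretory pathway, and the chaperone HSPA5 (BiP) together with HSP90B1 (GRP94) and the protein disulfide isomerases carries much of this work. When unfolded proteins build up, the sensors IRE1 (encoded by ERN1), PERK (EIF2AK3) and ATF6 start the unfolded protein response, in which IRE1 splices XBP1 mRNA, PERK slows translation, and proteases release the active part of ATF6. The transcription factors that result are known to raise chaperone and degradation genes. Gene-level RNA values show neither splicing of XBP1, nor cleavage of ATF6, nor phosphorylation of PERK.

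The members together took 0.774% of the CPM of a library at P0 (mean of 4 libraries, range 0.770 to 0.777%), 0.968% at P3 (0.959 to 0.976%), 1.23% at P7 (1.23 to 1.24%) and 1.00% at P15 (0.948 to 1.04%). Total counts were estimated at 33.7 to 50.1 M per library, and 5 pseudogenes of members (of HSP90B1, XBP1, SEC63 and ERP29) had means of 0.0577 to 0.324 CPM. In bulk RNA, a change in every cell and a change in the share of cells that express a gene cannot be told apart. The share of CPM on mitochondrial genes ran from 0.940 to 1.80% at P0, from 1.36 to 1.59% at P3, from 1.63 to 1.92% at P7 and from 1.13 to 1.32% at P15. Its phase means were 1.23, 1.47, 1.77 and 1.21%, and its part in the results was not tested. Epithelial markers did not keep a common course across the phases. On the log2(CPM + 1) scale, KRT18 read 8.75 to 9.38 in every library and CDH1 0 to 0.13, while from P0 to P15 the means of KRT7 went from 9.90 to 3.64, of KRT8 from 9.22 to 6.16, of KRT19 from 6.43 to 0.02 and of EPCAM from 2.68 to 0.86. The epithelial markers KRT7, KRT8, KRT19 and EPCAM were thus at their lowest means at P15, and the part of this in the results at P15 was not tested. The 7 markers of blood, endothelial, liver and red cells all had means below 1 CPM and summed to 0.231 to 1.13 CPM in any library, with PTPRC at no more than 0.08 on the log2 scale.

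Promoter sequences of some members are shown first, because the elements that the stress-activated factors bind are known in detail. An ER stress response element of either form described below lay in 9 of 47 members (19.1%, against 0.131% of all promoters). Of the 6 members that rose by at least 2-fold from P0 to P7, 4 carry an exact match. PDIA4 and MANF hold none in the stretch searched. ERO1B, HYOU1, PDIA6, SDF2L1 and XBP1 carry one and stayed below 2-fold. The part of these elements in the changes was not tested. Promoters were taken as 250 bases before to 50 after the RefSeq start of the gene (GRCh38.p14). The set of promoters used here held 47 of the 50 members, all but DNAJC1, DERL1 and DERL3. An ER stress response element (ERSE, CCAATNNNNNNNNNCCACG, searched on both strands) lay in the promoters of 6 members, CRELD2, ERO1B, HSP90B1, HSPA5, PDIA6 and XBP1, which is 12.8% of 47, against 27 of 35116 promoters in all (0.0769%). The second form, ERSE-II (ATTGGNCCACG), lay in those of HERPUD1, HYOU1 and SDF2L1 (6.38% of 47, against 0.0541% of all promoters). A UPRE (TGACGTGG or TGACGTGA) was held by DNAJC10, HYOU1, SEC62, SSR3, TXNDC11 and TXNDC5 (12.8% of 47, against 1.18% of all), and the UPRE of HYOU1 overlaps 1 of its ERSE-II. Positions in the promoters count from the start that RefSeq gives, which differs from the GENCODE start used for the gene intervals printed further on, so that an element before the RefSeq start can lie inside such an interval, as for HSP90B1 and CRELD2. In the sequences below the capitals mark the ERSE or ERSE-II, each written 5′ to 3′ on the strand of the gene, so that an element on the other strand reads as its reverse complement. The stretch before the RefSeq start of HSPA5 is chr9:125241344-125241593 (minus strand). The 2 elements of HSP90B1 lie in chr12:103930196-103930254 and chr12:103930301-103930359 (plus strand), that of CRELD2 in chr22:49918534-49918592 (plus strand), that of XBP1 in chr22:28800583-28800641 (minus strand) and that of HERPUD1 in chr16:56932005-56932055 (plus strand).
HSPA5: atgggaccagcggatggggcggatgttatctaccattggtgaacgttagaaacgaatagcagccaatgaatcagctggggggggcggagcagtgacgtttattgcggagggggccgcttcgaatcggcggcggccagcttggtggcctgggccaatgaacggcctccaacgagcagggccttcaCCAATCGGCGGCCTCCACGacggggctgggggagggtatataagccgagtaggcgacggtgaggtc
HSP90B1, farther element: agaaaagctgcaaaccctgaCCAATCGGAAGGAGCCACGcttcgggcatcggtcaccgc
HSP90B1, nearer element: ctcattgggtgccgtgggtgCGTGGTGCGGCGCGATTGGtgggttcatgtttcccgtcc
CRELD2: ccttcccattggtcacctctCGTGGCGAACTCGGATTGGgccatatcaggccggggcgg
XBP1: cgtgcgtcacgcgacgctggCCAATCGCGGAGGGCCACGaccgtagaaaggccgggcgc
HERPUD1: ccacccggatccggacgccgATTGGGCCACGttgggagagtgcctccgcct

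A match to these letters is a description of the window and not a measured binding site. Only exact matches were counted, so near matches, also within the stretches printed, and elements outside the window are left out. The elements were already known from genes of this response, so their excess among the members is not a result of these data. The 9 members with an ERSE or ERSE-II had a median log2 fold change of 0.85 between P0 and P7 (range 0.21 to 1.11), beside 0.39 (range -0.08 to 1.11) for the 38 members with a promoter but without either element. Between P0 and P3 the medians were 0.23 with and 0.25 without an element, between P3 and P7 0.57 and 0.18, between P7 and P15 -0.14 and -0.25, and between P0 and P15 0.38 (range 0.24 to 1.43) and 0.23 (range -0.94 to 1.77). XBP1 held the lowest value of the 9 at P7, and HSPA5 the highest.

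The comparison of P7 with P0 asked how the members stood in the middle of the selection. At P7, 44 of the 50 members were higher than at P0 and 0 were lower, while 6 did not pass the test (limma on log2(CPM + 1) with Benjamini-Hochberg adjustment over 13249 genes, adjusted p below 0.05). The background was 27.9% of all genes tested higher and 34.2% lower. At an unadjusted p below 0.05 the counts were 45 higher and 0 lower. Without replicate 2 of P0 the count of lower members was 1, EDEM3. The median log2 fold change was 0.46 for the members and -0.03 for all genes tested. Changes of at least 2-fold were seen upwards in 6 members, HSPA5, HSP90B1, PDIA4, MANF, CRELD2 and HERPUD1 (background 1.85% higher and 1.52% lower), and downwards in 0, which was also 0 at an unadjusted p below 0.05. These counts are on the log2(CPM + 1) scale, where the added 1 CPM compresses the changes of low genes. DERL3, with means of 1.64 CPM at P0 and 4.19 CPM at P7, had a log2 fold change of 0.97 on that scale and is not among the 6. When 5 was added to CPM, the count of higher members was 3.

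**Figure D1:**
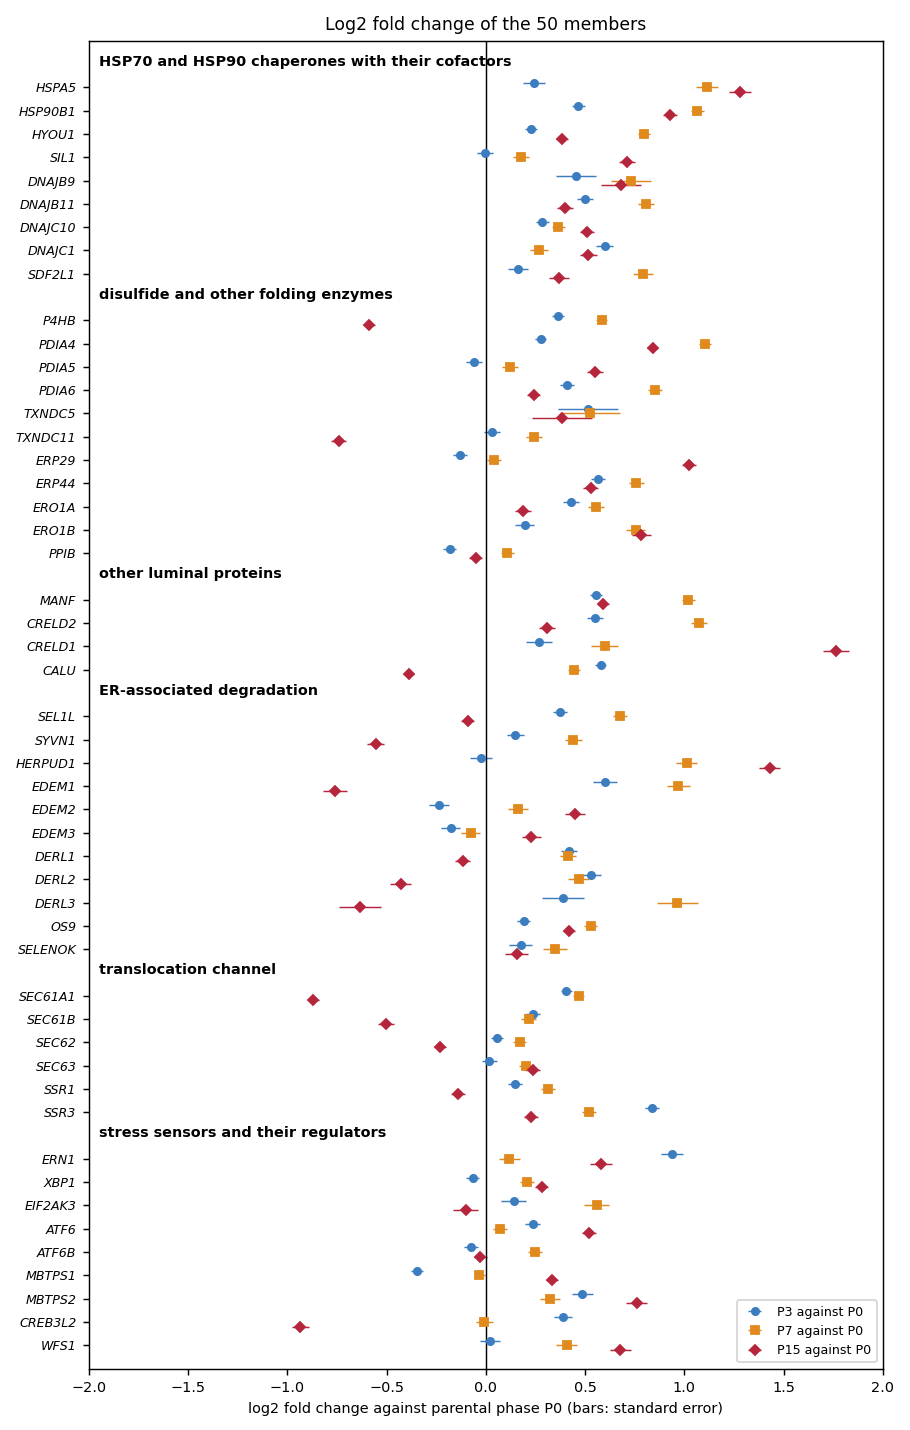
Log2 fold change against parental phase P0 (horizontal axis, log2(CPM + 1) scale, bars are standard errors) for each of the 50 members, grouped by role. Squares are P7, circles P3 and diamonds P15: the squares lie right of 0 for 44 members that passed the test, and the diamonds spread from -0.94 (CREB3L2) to 1.77 (CRELD1).

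The steps on either side of P7 differed in direction. From P0 to P3, 35 members were higher and 5 lower (background 31.4% and 37.3%), and from P3 to P7, 37 were higher and 7 lower (background 30.3% and 28%). Both steps were upward for 23 members, and the same count over all genes was not made. From P7 to P15, 15 members were higher and 30 lower (background 46.3% and 40.1%), with a median log2 fold change of -0.25 beside 0.06 for all genes tested. Of the 44 members that had been higher at P7 than at P0, 29 were lower again at P15 than at P7. Another 10 were higher still and 5 did not pass the test. These 44 were picked by their P7 libraries, which also enter the comparison with P15. The share of all genes that rose and fell in this way was not counted, so these counts only describe the members. Among the 23 that rose in both earlier steps, only CRELD1, DNAJC10 and HSPA5 also passed as higher at P15 than at P7, and for DNAJC10 the step from P3 to P7 was 0.08 with an adjusted p of 0.045 by limma and did not pass without replicate 1 or 2 of P7, among others. At P15 against P0, 33 members were higher and 14 lower (background 45.3% and 40.9%), with medians of 0.32 and 0.04. At P15 against P3 the counts were 23 higher and 21 lower (background 46.1% and 41.1%). The comparisons share libraries and are not independent of each other.

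**Figure D2:**
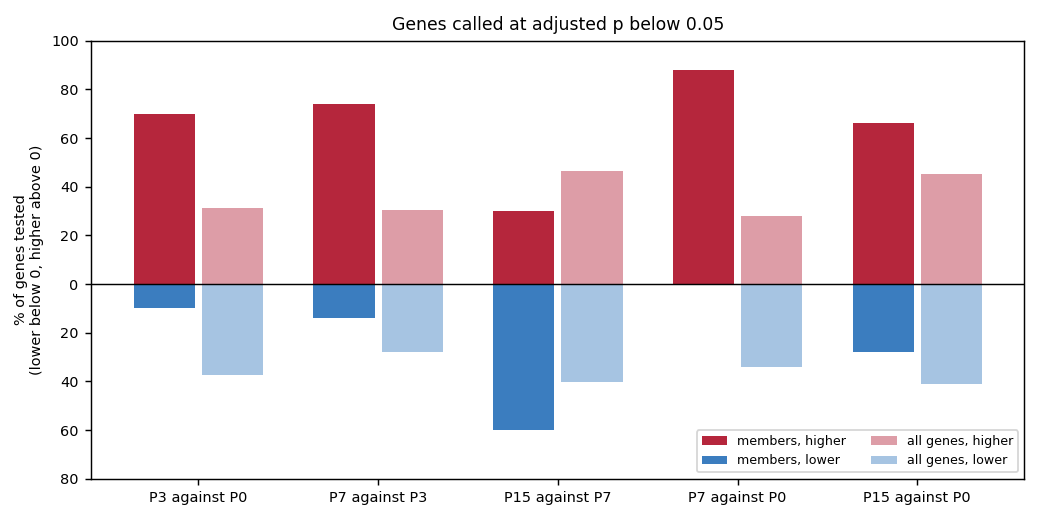
Share of genes (vertical axis, % of the genes tested) that were higher (above 0) or lower (below 0) at an adjusted p below 0.05 in each of 5 comparisons, for the members (dark bars) and for all 13249 genes (pale bars). Of the members, 44 of 50 were higher and 0 lower at P7 against P0, while 15 were higher and 30 lower at P15 against P7.

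Each gene was also counted for a phase where it was higher than in each of the other 3 phases. P7 was the highest phase of 23 members (background 7.43%), P15 of 13 (37.2%), P3 of 4 (10.3%, CALU, CREB3L2, ERN1 and SSR3) and P0 of 0 (10.8%), a count that was also 0 at an unadjusted p below 0.05 in limma. P0 was the lowest phase of 21 members (8.91%), P15 of 14 (32.3%), P3 of 4 (12.5%, EDEM2, ERP29, MBTPS1 and PPIB) and P7 of 0 (7.3%), likewise 0 without adjustment. The share of the members with their highest level at P15 thus lay below the background, and the share with it at P7 above.

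All 9 HSP70 and HSP90 chaperones and cofactors were higher at P7 than at P0, with a median log2 fold change of 0.79, and all 9 were higher at P15 than at P0, with a median of 0.52. HSPA5, the ATP-driven HSP70 chaperone of the ER lumen (chr9:125234853-125241382, minus strand, GRCh38), read 9.51, 9.48, 9.48 and 9.47 at P0, 9.71, 9.70, 9.76 and 9.74 at P3, 10.57, 10.65, 10.58 and 10.59 at P7, and 10.85, 10.95, 10.50 and 10.76 at P15, in log2(CPM + 1) for replicates 1 to 4 in that order, as in all such series here. The P0, P3 and P7 libraries did not overlap, whereas replicate 3 of P15 fell below all 4 of P7. The log2 fold change of HSPA5 was 1.11 ± 0.056 (standard error) at P7 against P0 and 1.28 ± 0.056 at P15 against P0 (limma, adjusted p = 2.4e-14 and 1.6e-16). From P7 to P15 it was 0.17 ± 0.056 (limma, adjusted p = 0.0081), 0.11 without replicate 2 of P15 (adjusted p = 0.061), 0.26 without replicate 3 of P15, and 0.04 after quantile normalization (adjusted p = 0.46), so that this last step is not firm.

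HSP90B1, the HSP90 family chaperone of the ER (chr12:103930107-103953931, plus strand), read 9.65, 9.63, 9.57 and 9.62 at P0, 10.10, 10.04, 10.12 and 10.07 at P3, 10.69, 10.71, 10.67 and 10.66 at P7, and 10.61, 10.58, 10.45 and 10.54 at P15. Its libraries were separated in each pair of phases, with P7 highest. The fold change was 1.07 ± 0.033 at P7 against P0 and then -0.14 ± 0.033 from P7 to P15 (limma, adjusted p = 2.2e-18 and 0.00049). Its exons overlap those of 3 other annotated genes, and the strand setting of the counting is not stated. SIL1, the nucleotide exchange factor that lets HSPA5 release ADP, was highest at P15. It read 5.24, 5.22, 5.16 and 5.25 at P0, 5.27, 5.18, 5.22 and 5.18 at P3, 5.36, 5.42, 5.41 and 5.38 at P7, and 5.95, 6.0, 5.89 and 5.87 at P15. P0 and P3 overlapped, and all 4 P15 libraries lay above the rest. Its log2 fold change was 0.18 ± 0.040 at P7 against P0 and 0.54 ± 0.040 at P15 against P7 (limma, adjusted p = 0.00056 and 6e-12).

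The other exchange factor, HYOU1 (GRP170), was 0.80 higher at P7 than at P0 and fell by 0.41 from P7 to P15 on the log2 scale. Among the J-domain cofactors that hand clients to HSPA5, DNAJB11 rose by 0.81 and DNAJB9 by 0.73 from P0 to P7, and DNAJC10, which also reduces disulfides, by 0.37. Towards P15, DNAJB11 fell by 0.41, DNAJC10 rose by 0.15 and DNAJB9 stood at -0.05, which did not pass the test. DNAJC1 was 0.60 at P3 against P0, -0.33 from P3 to P7 and 0.25 from P7 to P15, and its P3 and P15 libraries overlapped. SDF2L1, a luminal partner of the J proteins, was 0.79 higher at P7 than at P0 and -0.43 from there to P15.

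**Figure D3:**
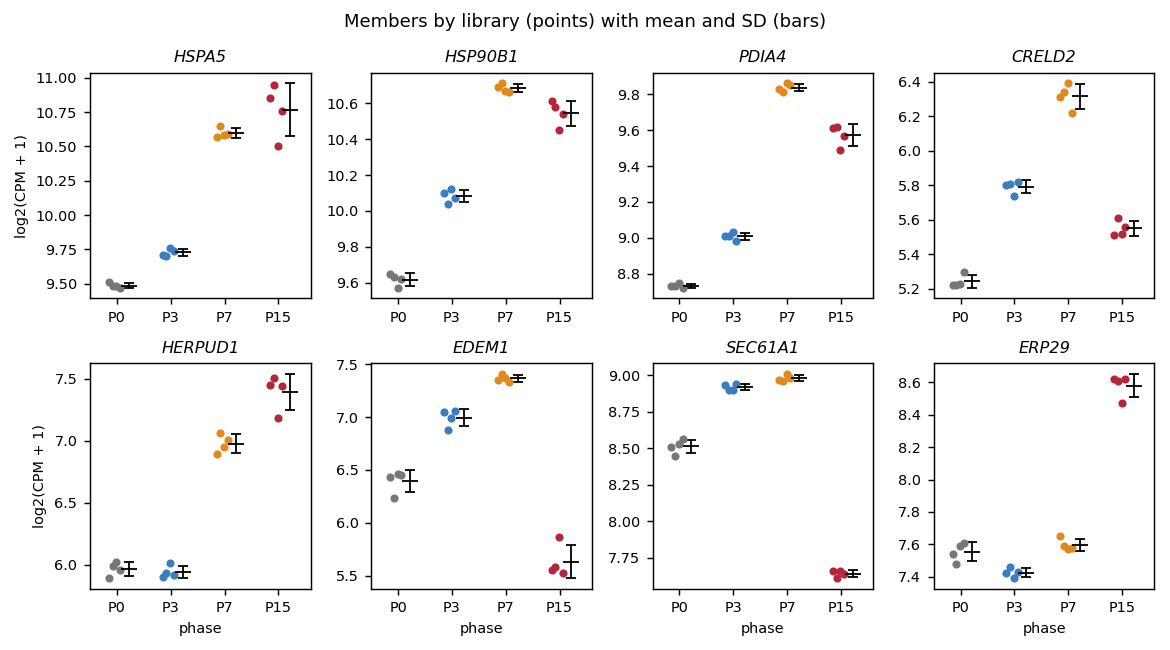
Deposited log2(CPM + 1) values (vertical axis, a scale of its own in each panel) of 8 members in the 16 libraries, by phase (horizontal axis), with points for libraries and bars for mean and SD (n = 4). HSP90B1, PDIA4, CRELD2 and EDEM1 are highest at P7, SEC61A1 falls to between 7.61 and 7.66 at P15, and ERP29 stands apart at P15 with 8.47 to 8.62.

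Of the 11 disulfide and other folding enzymes, 10 were higher and 0 lower at P7 against P0, with a median of 0.56, and 2 were higher and 7 lower at P15 against P7. PDIA4, a thiol oxidoreductase found in complexes with HSPA5 (chr7:149003062-149028662, minus strand), read 8.73, 8.73, 8.75 and 8.72 at P0, 9.01, 9.01, 9.03 and 8.98 at P3, 9.83, 9.81, 9.86 and 9.85 at P7, and 9.61, 9.62, 9.49 and 9.57 at P15. No 2 phases overlapped. The rise from P3 to P7 was 0.83 ± 0.029, that from P0 to P3 0.28 ± 0.029, and P15 stood -0.27 ± 0.029 from P7 (limma, adjusted p = 5.8e-17, 1.2e-08 and 7.5e-09).

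ERP29, a luminal protein with a thioredoxin-like fold but without the active cysteines of the isomerases (chr12:112013348-112023449, plus strand), read 7.54, 7.48, 7.59 and 7.61 at P0, 7.42, 7.46, 7.39 and 7.43 at P3, 7.65, 7.59, 7.57 and 7.58 at P7, and 8.62, 8.61, 8.47 and 8.62 at P15. P0 and P7 overlapped, and P15 lay apart from all other libraries. The step from P7 to P15 was 0.98 ± 0.036 and the difference of P7 from P0 0.04 ± 0.036 (limma, adjusted p = 3.2e-18 and 0.31, 95% interval of the latter -0.03 to 0.12). P4HB, the major protein disulfide isomerase, moved the other way, with 0.58 ± 0.030 at P7 against P0 and -1.17 ± 0.030 from P7 to P15 (limma, adjusted p = 3.1e-14 and 2.3e-21). TXNDC11, another member of the thioredoxin family, was -0.99 from P7 to P15, and PDIA6 was -0.61 after a rise of 0.85 from P0 to P7.

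The oxidases that reoxidise the isomerases differed from each other. ERO1A rose by 0.56 from P0 to P7 and fell by 0.37 from P7 to P15, whereas ERO1B rose by 0.76 and then stood at 0.03, which did not pass the test. ERP44, which retains ERO1 in the ER, rose by 0.76 and fell by 0.23. PDIA5 was 0.12 at P7 against P0, a call that did not hold without replicate 1 of P7 (adjusted p = 0.054 by limma), and 0.43 from P7 to P15. PPIB, a prolyl isomerase of the ER, was 0.11 at P7 against P0 and -0.16 from P7 to P15. TXNDC5 was 0.52 at P7 against P0 and 0.39 at P15 against P0, and the second call did not hold without replicate 1 of P0 or replicate 2 or 4 of P15 (adjusted p = 0.062 to 0.067 by limma). TXNDC5 had a mean of only 4.07 CPM and shares exons with an annotated read-through transcript.

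Of the other 4 luminal proteins, all were higher at P7 than at P0, and 3 fell from P7 to P15. CRELD2, a secreted ER stress protein (chr22:49918167-49927540, plus strand), read 5.22, 5.22, 5.23 and 5.30 at P0, 5.80, 5.81, 5.74 and 5.82 at P3, 6.31, 6.34, 6.39 and 6.22 at P7, and 5.51, 5.61, 5.52 and 5.56 at P15. All phases were separated, and P15 lay between P0 and P3. Its fold change was 1.07 ± 0.040 at P7 against P0 and -0.77 ± 0.040 from P7 to P15 (limma, adjusted p = 8.6e-17 and 5.5e-15). CRELD1, a membrane-anchored relative of CRELD2 (chr3:9933793-9945413, plus strand), rose at every step. It read 3.53, 3.51, 3.46 and 3.57 at P0, 3.64, 4.04, 3.72 and 3.74 at P3, 4.14, 4.08, 4.07 and 4.17 at P7, and 5.28, 5.31, 5.30 and 5.24 at P15. No phases overlapped, although replicate 2 of P3 came within 0.03 of the lowest P7 library. The step from P7 to P15 was 1.17 ± 0.066 and the difference of P15 from P0 was 1.77 ± 0.066, the largest rise among the members (limma, adjusted p = 2.7e-14 and 6.8e-18).

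MANF, a secreted factor that also stabilises HSPA5 with its clients, rose by 0.56 from P0 to P3 and by 0.47 from P3 to P7, and fell by 0.43 from P7 to P15. CALU, a calcium-binding protein of the secretory pathway, was highest at P3, 0.58 above P0, and fell by 0.83 from P7 to P15.

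Among the 11 genes of ER-associated degradation, 10 were higher at P7 than at P0 and 0 lower. At P15 against P7, 3 were higher and 8 lower, with a median of -0.53, so that 5 were higher and 6 lower at P15 than at P0. EDEM1, a lectin that picks out misfolded glycoproteins (chr3:5187646-5219958, plus strand), read 6.43, 6.24, 6.46 and 6.45 at P0, 7.05, 6.88, 6.99 and 7.06 at P3, 7.35, 7.41, 7.37 and 7.33 at P7, and 5.56, 5.58, 5.87 and 5.53 at P15. P7 was above and P15 below every other library. The step from P7 to P15 was -1.73 ± 0.060, the largest fall among the members, after 0.97 ± 0.060 from P0 to P7 (limma, adjusted p = 1.1e-18 and 9.6e-13).

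The related lectin EDEM3 (chr1:184690237-184754907, minus strand) moved in the other direction. It read 5.58, 5.36, 5.44 and 5.56 at P0, 5.29, 5.26, 5.33 and 5.35 at P3, 5.38, 5.45, 5.43 and 5.37 at P7, and 5.71, 5.73, 5.79 and 5.62 at P15. P0 and P7 overlapped, and P15 lay above all others. EDEM3 was 0.31 ± 0.048 higher at P15 than at P7 (limma, adjusted p = 2.6e-06), and -0.08 ± 0.048 at P7 against P0 (adjusted p = 0.16, and -0.12 with adjusted p = 0.03 without replicate 2 of P0). EDEM2, a mannosidase of the same family, was 0.29 higher at P15 than at P7.

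DERL3, a Derlin of the retrotranslocation complex (chr22:23834503-23839128, minus strand), had the lowest mean CPM of the members, 2.25, without correction for gene length. It read 1.52, 1.31, 1.43 and 1.34 at P0, 1.69, 1.96, 1.59 and 1.91 at P3, 2.43, 2.44, 2.53 and 2.06 at P7, and 0.73, 0.73, 0.83 and 0.77 at P15. The phases did not overlap, but at this level the added 1 CPM compresses its fold changes, which were 0.97 ± 0.104 at P7 against P0 and -1.60 ± 0.104 from P7 to P15 (limma, adjusted p = 2.2e-08 and 4.2e-13). Its relatives DERL1 and DERL2 fell by 0.53 and 0.90 from P7 to P15.

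HERPUD1, a stress-induced membrane protein that organises the degradation complex (chr16:56932142-56944864, plus strand), rose after P3. It read 5.89, 5.99, 6.02 and 5.96 at P0, 5.90, 5.93, 6.01 and 5.92 at P3, 6.89, 7.06, 6.95 and 7.01 at P7, and 7.45, 7.51, 7.18 and 7.44 at P15. P0 and P3 overlapped, and P7 and P15 were separated from them and from each other. HERPUD1 stood at -0.03 ± 0.053 from P0 to P3, 1.04 ± 0.053 from P3 to P7 and 0.42 ± 0.053 from P7 to P15 (limma, adjusted p = 0.69, 7.1e-14 and 9.9e-08). HERPUD1 was the only member that changed by at least 2-fold from P3 to P7 on this scale, and with a pseudocount of 5 the count was 0 (background 0.989% higher and 0.838% lower).

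The ubiquitin ligase SYVN1 (HRD1), its adaptor SEL1L and the client lectin OS9 form the core of the degradation complex that HERPUD1 joins. From P0 to P7, SEL1L rose by 0.68, OS9 by 0.53 and SYVN1 by 0.44. From P7 to P15, SYVN1 was -0.995 ± 0.042, SEL1L -0.77 ± 0.033 and OS9 -0.11 (limma, adjusted p = 6.3e-17 for SYVN1 and 1.3e-16 for SEL1L), and the value of OS9 did not pass the test after quantile normalization (-0.04, adjusted p = 0.24). SYVN1 shares exon bases with FAU on the same strand, a ribosomal protein gene with a mean of 283 CPM at P7 and 206 CPM at P15, and the part of FAU in the value of SYVN1 was not tested. At P15 against P0, SEL1L stood at -0.09 (adjusted p = 0.013 by limma), a call that did not hold without replicate 2 of P15 (adjusted p = 0.069). SELENOK, a small selenoprotein of the ER membrane, was 0.35 at P7 against P0 and -0.19 from P7 to P15.

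The 6 genes of the translocation channel, through which new proteins enter the ER, were all higher at P7 than at P0, with a median of 0.26. At P15 against P7, 5 were lower and 0 higher in limma, also 0 at an unadjusted p below 0.05. SEC61A1, the pore subunit (chr3:128051641-128071705, plus strand), read 8.51, 8.45, 8.53 and 8.56 at P0, 8.93, 8.90, 8.90 and 8.94 at P3, 8.97, 8.96, 9.01 and 8.98 at P7, and 7.66, 7.61, 7.66 and 7.64 at P15. P15 lay below all other libraries by more than the spread of any phase. The step from P7 to P15 was -1.34 ± 0.028 and the difference of P15 from P0 -0.87 ± 0.028 (limma, adjusted p = 4.3e-23 and 2.6e-19). SEC61A1 overlaps RUVBL1 on the opposite strand, which had a mean of 67.4 CPM at P7 and 135 CPM at P15, and its part in the result was not tested.

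The small subunit SEC61B fell by 0.72 from P7 to P15, and SEC62, which helps post-translational import, by 0.40. The J-domain partner SEC63 stood at 0.03, which did not pass the test (0.10 with adjusted p = 0.015 in limma after quantile normalization). The translocon-associated proteins SSR1 and SSR3 fell by 0.45 and 0.29. SSR3 was highest at P3, 0.84 above P0.

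The 9 sensors and regulators moved in different directions. At P7 against P0, 5 were higher, 0 lower and 4 did not pass the test (ERN1, ATF6, MBTPS1 and CREB3L2), and from P7 to P15, 5 were higher and 3 lower. ERN1, the kinase and endonuclease IRE1 (chr17:64039080-64130819, minus strand), read 4.46, 4.26, 4.40 and 4.52 at P0, 5.31, 5.38, 5.30 and 5.40 at P3, 4.63, 4.52, 4.48 and 4.48 at P7, and 4.93, 5.01, 5.02 and 5.00 at P15. P3 was highest and P15 next, while P0 and P7 overlapped. Its fold change was 0.94 ± 0.054 from P0 to P3, -0.82 ± 0.054 from P3 to P7 and 0.46 ± 0.054 from P7 to P15 (limma, adjusted p = 1.9e-13, 6.1e-12 and 2.1e-08). At P7 against P0 it was 0.12 ± 0.054 (adjusted p = 0.061), which passed without replicate 4 of P0 (0.15, adjusted p = 0.021).

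XBP1, whose mRNA IRE1 splices (chr22:28794555-28800597, minus strand), read 7.31, 7.33, 7.39 and 7.32 at P0, 7.30, 7.24, 7.28 and 7.26 at P3, 7.51, 7.60, 7.46 and 7.61 at P7, and 7.56, 7.64, 7.61 and 7.66 at P15. P7 and P15 overlapped and lay above P0 and P3. Its log2 fold change was 0.21 ± 0.034 at P7 against P0 and 0.28 ± 0.034 at P15 against P0 (limma, adjusted p = 1.4e-05 and 5.9e-08). The step from P7 to P15, 0.07 ± 0.034, did not pass (adjusted p = 0.053, and 0.15 with adjusted p = 0.00031 after quantile normalization).

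EIF2AK3, the kinase PERK (chr2:88556741-88691518, minus strand), read 3.96, 3.89, 3.87 and 3.92 at P0, 4.07, 3.85, 4.15 and 4.13 at P3, 4.48, 4.56, 4.35 and 4.48 at P7, and 3.80, 3.81, 3.81 and 3.81 at P15. P7 lay above and P15 below all other libraries, and replicate 2 of P3 fell below P0. The gene was 0.56 ± 0.063 higher at P7 than at P0 and -0.66 ± 0.063 from P7 to P15 (limma, adjusted p = 4.9e-08 and 6.7e-10). P15 stood at -0.10 ± 0.063 from P0, which did not pass (adjusted p = 0.13, and -0.21 with adjusted p = 0.0035 after quantile normalization).

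ATF6, the membrane-bound transcription factor (chr1:161766298-161977574, plus strand), read 6.20, 6.07, 6.15 and 6.21 at P0, 6.35, 6.44, 6.39 and 6.39 at P3, 6.21, 6.28, 6.21 and 6.22 at P7, and 6.73, 6.64, 6.65 and 6.69 at P15. P0 and P7 touched at 6.21, and P15 was highest. The difference was 0.24 ± 0.036 from P0 to P3, -0.16 ± 0.036 from P3 to P7 and 0.45 ± 0.036 from P7 to P15 (limma, adjusted p = 4e-06, 0.00049 and 2.7e-11). At P7 against P0 it was 0.07 (adjusted p = 0.085, and 0.09 with adjusted p = 0.04 after a median shift). Its paralogue ATF6B was 0.25 higher at P7 than at P0 and fell by 0.28 from P7 to P15.

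MBTPS1 (S1P), the protease that makes the first cut in ATF6 (chr16:84053761-84116942, minus strand), read 7.25, 7.17, 7.19 and 7.22 at P0, 6.83, 6.88, 6.87 and 6.86 at P3, 7.18, 7.19, 7.21 and 7.12 at P7, and 7.55, 7.53, 7.56 and 7.52 at P15. P3 was lowest, P0 and P7 overlapped and P15 was highest. The difference was -0.35 ± 0.029 from P0 to P3 and 0.37 ± 0.029 from P7 to P15 (limma, adjusted p = 2.2e-10 and 2.3e-11). MBTPS2 (S2P), which makes the second cut, was 0.49 above P0 at P3 and rose by 0.44 from P7 to P15.

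CREB3L2, an ER-bound transcription factor that the same proteases activate (chr7:137874979-138002086, minus strand), read 6.94, 6.73, 6.87 and 6.87 at P0, 7.26, 7.17, 7.25 and 7.28 at P3, 6.88, 6.91, 6.74 and 6.85 at P7, and 5.97, 5.90, 5.97 and 5.83 at P15. P3 was highest and P15 lowest, with P0 and P7 overlapping. The step from P7 to P15 was -0.93 ± 0.045 and the difference of P15 from P0, the largest fall of a member in that comparison, was -0.94 ± 0.045 (limma, adjusted p = 9.8e-16 and 9.2e-16). WFS1, a membrane protein that restrains ATF6, was 0.41 higher at P7 than at P0 and 0.27 higher at P15 than at P7.

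**Figure D4:**
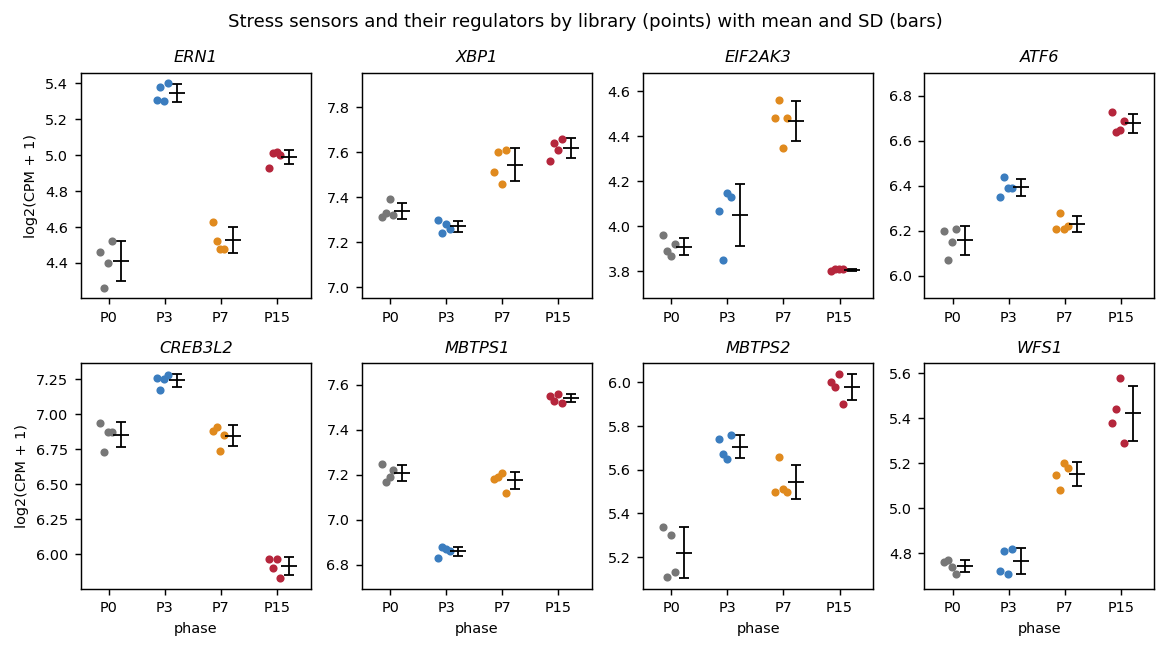
Deposited log2(CPM + 1) values (vertical axis, a scale of its own in each panel) of 8 sensors and regulators in the 16 libraries, by phase (horizontal axis), with points for libraries and bars for mean and SD (n = 4). ERN1 and CREB3L2 peak at P3, EIF2AK3 at P7, and ATF6, MBTPS1, MBTPS2 and WFS1 at P15.

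Few members passed a threshold of 2-fold. From P7 to P15, CRELD1 was higher and P4HB, SEC61A1, EDEM1 and DERL3 were lower by at least 2-fold (background 13.4% higher and 12.1% lower), and at P15 against P0, 4 members were higher, HSPA5, ERP29, CRELD1 and HERPUD1, and 0 lower (background 12.1% and 11.5%), the count of lower members being also 0 at an unadjusted p below 0.05. DERL3 had means of 1.64 CPM at P0 and 0.700 CPM at P15, and with a pseudocount of 0.1 the count of lower members was 1. Without replicate 3 of P15, ERP29 joined CRELD1 from P7 to P15. From P0 to P3, 0 members changed by at least 2-fold in either direction, also 0 at an unadjusted p below 0.05 (background 1.95% and 2.51%). The share of members past 2-fold at P15 was thus near or below that of all genes, while 6 of 50 at P7 against P0 lay above it.

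Other genes of ER function, taken from lists that hold none of the members, were counted in the same way. The background at P7 against P0 was 27.9% of all genes tested higher and 34.2% lower. At P15 against P0 it was 45.3% higher and 40.9% lower, and counts near these shares are no result about a list. A list was named after the PERK branch, which carries the translational arm of the response. Of its 10 genes, 6 were higher and 4 lower at P7 against P0, and 8 were higher and 2 lower at P15 against P0. The median at P15 against P0 was 1.43. Activity of PERK was not measured, and its gene EIF2AK3 was -0.66 from P7 to P15. DDIT3 (CHOP), a transcription factor of this branch, had a mean of 3.62 at P0, 4.26 at P3, 4.54 at P7 and 6.22 at P15. The paper places DDIT3 among genes upregulated at P7, and here its mean rose at each step and was highest at P15. For ATF4, which acts upstream of DDIT3, the means were 9.49, 9.32, 9.29 and 9.67. ATF3 was 4.08 ± 0.101 higher at P15 than at P0 and ASNS, a target of ATF4, was -0.54 ± 0.048 at P7 against P0 (limma, adjusted p = 1.6e-21 and 8.8e-10). The means of ASNS were 6.89 at P0, 5.59 at P3, 6.35 at P7 and 8.67 at P15, so that it was highest at P15. DNAJC3 (p58IPK), an ER co-chaperone that restrains PERK, was highest at P7, reading 6.50, 6.47, 6.52 and 6.50 at P0, 7.54, 7.44, 7.51 and 7.50 at P3, 8.26, 8.39, 8.33 and 8.26 at P7, and 5.74, 5.72, 5.64 and 5.63 at P15. P7 was highest and P15 lowest without overlap, and the fold change was 1.81 ± 0.035 at P7 against P0 and -2.63 ± 0.035 from P7 to P15 (limma, adjusted p = 4.6e-22 and 6.6e-27).

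In the calnexin cycle, which folds glycoproteins, 10 of 11 genes were higher and 0 lower at P7 against P0 (the glucosyltransferase relative UGGT2 by 0.96, with PRKCSH lowest at 0.01, which did not pass), and 7 were higher and 3 lower at P15 against P0, from the cargo receptor LMAN1 at 0.95 to MLEC at -0.82. Of the oligosaccharyltransferase, 9 of 10 genes were higher and 1 lower at P7 (MAGT1 at 0.80 and TUSC3 at -0.31), against 3 and 2 at P15, where the catalytic subunits parted, STT3B at 0.64 and STT3A at -1.21. Signal peptidase and further translocon genes counted 7 higher and 2 lower of 12 at P7 (SEC61G at 1.09 and SEC11A at -0.43) and 3 and 8 at P15 (SEC61A2 at 1.28 and TRAM1 at -1.18). Further degradation genes counted 9 higher and 1 lower of 15 at P7 (AUP1 at 0.47 and the extracting ATPase VCP at -0.18) and 3 and 8 at P15 (RHBDD1 at 1.61 and VCP at -1.32).

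Of 12 genes of COPII vesicles, which carry cargo out of the ER, 3 were higher and 4 lower at P7 against P0, near the background. The extremes there were SAR1A at 0.52 and SEC23A at -0.45. At P15, 2 were higher and 9 lower (SEC24B at 0.63 and SEC31A at -0.85). Collagen folding enzymes and chaperones were 8 higher and 1 lower of 9 at P7 (P4HA1 at 1.58 and FKBP10 at -0.09), and 6 and 3 at P15 (PLOD3 at 0.95 and the collagen chaperone SERPINH1 at -2.49). For cytosolic and mitochondrial heat shock proteins, which lie outside the ER, the counts were 5 higher and 4 lower of 11 at P7, with a median of 0.02 (HSPB1 at 0.47 and HSPH1 at -0.25), and 4 and 6 at P15 (HSPB1 at 1.18 and BAG3 at -1.53). These lists are described by their counts and were not tested against the members.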

How the data were processed

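Per the labels and the paper's methods, the authors aligned paired-end reads with STAR 2.6.1a to GRCh38, counted them on genes with featureCounts and deposited, for 39007 symbols, the log2 of CPM after adding 1 (2 decimals). The strand setting, annotation release and handling of multi-mapping reads are not given in the sources used here, and 33 of the 50 members share exon bases with another annotated gene (GENCODE 44). The quantile normalization and median centring that the methods name are not in the values.

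Phases were compared with limma 3.58.1 (R 4.3.3), with a variance trend and 1 coefficient per phase over all 16 libraries, and adjustment by Benjamini-Hochberg across all 13249 genes whose mean exceeded 1 CPM. Fold changes are on the log2(CPM + 1) scale. Tables and figures were made in Python 3.11.15 with numpy 2.4.6, pandas 2.3.3 and matplotlib 3.10.9. Total counts per library were inferred from the steps between low values.

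Libraries were grouped by the phase in the labels and numbered by their description. Titles end in a number after the letter S, which repeats 5 times among the 16 libraries and whose meaning is not given, and no label names a batch. The members and the other gene lists were chosen with earlier results of these data known. Values of every library are given for HSPA5, HSP90B1, XBP1, the 3 sensors and the members with the 3 largest rises and falls in P7 against P0, P15 against P7 and P15 against P0, and of each other list the largest rise and fall. The alternatives tried were no filter or a stricter one, a pseudocount of 0.1 or 5, quantile normalization, a median shift, no trend, pairs of phases alone, a replicate block, the treat test of limma, and leaving out 1 library at a time.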

Additional observations from a re-analysis of the deposited data

Results flagged for a closer look

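In 11 of 200 groups of 4 libraries (50 members in 4 phases), the highest or lowest library lay apart from the others by Dixon's ratio (gap to the nearest library over the whole range, at the 95% critical value), and chance alone gives about 10. Replicate 2 of P7 was the library apart in 4 of them: lower for P4HB (ratio 0.90, 10.51 against a median of 10.61 in the others), and higher for SEL1L (0.86), ATF6 (0.86) and MBTPS2 (0.94, 5.66 against 5.50). Replicate 3 of P15 was lower for ERP29 (0.93, 8.47 against 8.62) and higher for EDEM1 (0.85, 5.87 against 5.56). At P0, replicate 1 was higher for TXNDC11 (0.92), replicate 4 higher for CRELD2 (0.87) and replicate 2 lower for EDEM1 (0.86, 6.24 against 6.45). Replicate 1 of P3 was lower for ATF6B (0.85). For EIF2AK3 at P15 the ratio was 1.0, but replicate 1 read 3.80 and the others 3.81, a difference of 1 rounding step.

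Replicate 3 of P15 was the lowest of its phase for 20 members, HSPA5, HSP90B1 and PDIA4 among them. It was the highest for 11, EDEM1, SYVN1 and ERN1 among them. Replicate 1 of P15 was lowest for 8 and highest for 17, replicate 2 for 5 and 13, and replicate 4 for 14 and 3. The same ranks over all genes were not counted.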

How the results depend on the processing

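No call of a member changed direction under the alternatives run for 5 comparisons. A sign changed in 26 values of 11 combinations of member and comparison, and 0 of these passed the threshold in either fit. Apart from limma's treat test, the alternatives on processing gave 2495 values, of which 2465 kept their side of the threshold, 14 lost a call and 16 gained 1. The 4000 values with 1 library left out gave 3961, 23 and 16. Of 250 combinations of member and comparison, 25 changed call in at least 1 of these settings. With the treat test (log2 change above 0.25), 19 members were higher and 1 lower at P3 against P0, 14 higher and 2 lower at P7 against P3, 9 higher at P15 against P7 and 29 higher at P7 against P0, and 2 were highest in P3, 7 in P7 and 6 in P15, since only larger changes can pass this test. The share of all genes was not counted under the treat test, so its counts stand without a background. Whether the 7 members highest in P7 exceed such a share was therefore not tested. Alternatives for P15 against P3 and for the counts at 2-fold were added after seeing the data. At P15 against P3, 14 were higher with the treat test and 22 to 24 in the other processing alternatives. At 2-fold, a pseudocount of 0.1 gave 1 lower member at P15 against P0, a pseudocount of 5 gave 0 higher at P7 against P3 and 3 higher at P7 against P0, and quantile normalization gave 2 higher at P15 against P7. With 1 library left out, the counts at P7 against P0 were 43 to 45 higher and 0 to 1 lower (EDEM3 without replicate 2 of P0), those at P15 against P7 14 to 16 higher and 30 to 31 lower, and those at P7 against P3 34 to 39 higher. Without 1 library, 1 to 2 members were higher by at least 2-fold at P15 against P7 (ERP29 added without replicate 3 of P15). Replicate numbers were shared by phases, and deviations of same-numbered libraries correlated at -0.147 to 0.218 (1 of 24 pairs above 0.1). Low correlations cannot exclude a shared culture day, preparation or run, and no label names a batch. With the replicate block, 44 members were higher at P7 than at P0 and 36 at P7 than at P3, and only DNAJC10 lost a call (P7 against P3, 0.08, adjusted p = 0.059 and 0.057 by limma for the 2 numberings). Other scalings moved the median of all genes by at most 0.06. What depth limits was not tested member by member. DERL3 and TXNDC5 had the lowest mean CPM, 2.25 and 4.07.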
